A study of Mus musculus with 6 samples.

Results

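Integrins are surface receptors made of an α chain and a β chain, through which a cell holds on to extracellular matrix or to other cells. The 51 genes described here encode 13 integrin α chains, 6 β chains and 32 proteins that gather on their cytoplasmic tails at focal adhesions: activators, links to actin, adaptors and kinases. They were chosen by gene symbol, as the rows of the deposited gene table that carry these names, by a rule that uses no measured value although the list was drawn up with earlier results of these data known, and they are 51 of the 54532 genes listed.

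Talins and kindlins bind the β tail and switch the receptor to its adhesive form, vinculin, α-actinins and filamin tie it to actin, and paxillin, focal adhesion kinase and Src family kinases pass the signal on. The α5 chain pairs with β1 alone to form the classical fibronectin receptor, whereas the β2 integrins are confined to leukocytes and mediate their adhesion to endothelium, complement and fibrin. In leukocytes, Syk takes a large part of the signalling from β2 and other integrins, and kindlin-3 is the main kindlin.

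The libraries were made from the hearts of 12-week-old C57BL/6 mice, 7 days after permanent occlusion of the coronary artery. ITGA5 fl/fl mice carry the floxed gene of the α5 chain and no Cre. Myα5KO mice carry the same floxed gene together with a Cre recombinase that the lysozyme M locus drives, so that recombination takes place in myeloid cells in general, including neutrophils, and not in macrophages alone. There were 3 libraries in each group, each from an individual heart, of cells that had been depleted of Ly6G+ cells and then retained for CD11b, the αM chain and thus itself one of the genes described. All p-values measure the spread between these libraries.

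Each library held between 15424451 and 18419287 counts. All 8 macrophage markers were detected, with a summed level of 10396 to 10555 CPM (counts scaled to a common library total with the TMM factors) in ITGA5 fl/fl against 10011 to 10551 CPM in Myα5KO libraries, and 2 of the 8 (Cx3cr1 and Fcgr1) were called higher. Markers of other cells were also present. The summed level of 8 fibroblast markers was 1620 to 1899 CPM in ITGA5 fl/fl against 1211 to 1579 CPM in Myα5KO libraries, and that of 8 neutrophil markers was 187 to 226 and 245 to 372 CPM. Csf3r was the largest part of the neutrophil sum and was not called (109% of its control level). By contrast, 5 of these markers were called higher, at 284% (S100a8) to 413% (Ltf), and 1 of the 8 was lower without a call (Retnlg, 64.4%). In RNA from a mixed preparation, fewer cells of a type and less RNA per cell cannot be told apart.

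Promoter windows of RefSeq, from 250 bases before to 50 bases after a transcription start (build GRCm38.p6), were available for 39 of the 51 genes and gave 51 windows. Those of 3 genes that were lower in Myα5KO macrophages are shown, because they are the target of the deletion and the kinases with the largest decreases, and because they differ in the element searched. Capitals mark the GC box (GGGCGG, or CCGCCC where it lies on the other strand), to which Sp family factors bind. The windows of Itga5 (chr15:103366742-103367041, minus strand) and Src (chr2:157424043-157424342, plus strand) each hold 2 of them, and that of Syk (chr13:52583187-52583486, plus strand) holds none.
Itga5: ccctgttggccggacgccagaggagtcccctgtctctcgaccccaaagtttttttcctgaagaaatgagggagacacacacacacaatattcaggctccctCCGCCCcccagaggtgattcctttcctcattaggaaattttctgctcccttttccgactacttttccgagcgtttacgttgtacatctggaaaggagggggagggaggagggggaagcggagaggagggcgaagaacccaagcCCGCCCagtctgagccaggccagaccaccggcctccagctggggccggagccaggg
Src: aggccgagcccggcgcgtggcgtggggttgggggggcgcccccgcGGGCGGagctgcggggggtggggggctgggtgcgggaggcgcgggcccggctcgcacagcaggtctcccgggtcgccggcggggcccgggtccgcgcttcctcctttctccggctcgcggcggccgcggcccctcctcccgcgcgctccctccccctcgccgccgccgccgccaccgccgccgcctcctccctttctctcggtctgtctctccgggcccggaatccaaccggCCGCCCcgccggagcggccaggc
Syk: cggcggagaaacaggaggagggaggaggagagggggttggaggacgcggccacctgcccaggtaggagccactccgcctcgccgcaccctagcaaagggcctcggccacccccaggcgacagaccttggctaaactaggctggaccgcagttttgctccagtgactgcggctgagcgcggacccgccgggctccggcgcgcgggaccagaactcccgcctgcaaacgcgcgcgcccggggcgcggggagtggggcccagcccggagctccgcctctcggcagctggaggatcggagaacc
A GC box was present in 62.7% of the 51 member windows and in 35.7% of all 32851 promoter windows of the same length. The other motifs searched on both strands, some of which can share bases, were the ETS core CCGGAAG (7.84% of member and 8.86% of all windows), the PU.1 site GAGGAAGT (7.84% and 3.20%), the AP-1 site TGANTCA (9.80% and 7.81%) and the cyclic AMP response element TGACGTCA (3.92% and 1.79%). In the 8 windows of the 6 lowered genes with an entry, which also include Parvb, Fyn and Git1, a GC box was found in 6 and none of the 4 other motifs was found. A match describes the letters in the window only.

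Apart from Itga5 itself, the called differences were small: Pxn, Src and Syk were at 70.2%, 68.4% and 73.7% of their control level in Myα5KO macrophages, Parvb, Fyn and Git1 at 81.7% to 82.7%, and Itgal at 125%. All 51 genes passed the filter on low counts. Of these, 1 was higher in Myα5KO macrophages, 7 were lower and 43 were not called, with a threshold of 0.05 on the edgeR adjusted p over all 14522 genes tested. The called share was 15.7%, or 14% (1 higher and 6 lower of 50) without the deleted gene, beside 8.75% of all genes tested. By direction, 3.56% of all genes tested were higher and 5.19% were lower. In 17 of the 51 genes (33.3%) the libraries of both groups did not overlap, 5 with Myα5KO above and 12 with Myα5KO below, against 28.6% of all genes tested (14.9% above and 13.8% below). The median log2 fold change, Myα5KO over ITGA5 fl/fl, was -0.031 over the 51 genes and 0.015 over all genes tested, and the change exceeded 1.5-fold only in Itga5 and in Ilk, which was not called. The number called depended on the scaling: with library totals in place of TMM factors, 5 genes were higher (Itga6, Itga9, Itgal, Itgax and Parvg) and 5 lower (Itga5, Git1, Pxn, Src and Syk), while over all genes tested the calls moved from 517 higher and 754 lower to 1212 higher and 518 lower (11.9% called). Without ITGA5 fl/fl replicate 2, only Itga5, Pxn, Src and Syk of the 51 were called, all lower, beside 4.87% of all genes tested (252 higher and 471 lower). Without Myα5KO replicate 3, 2 of the 51 were higher, beside 402 higher and 650 lower of all genes tested (7.10%).

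**Figure D1:**
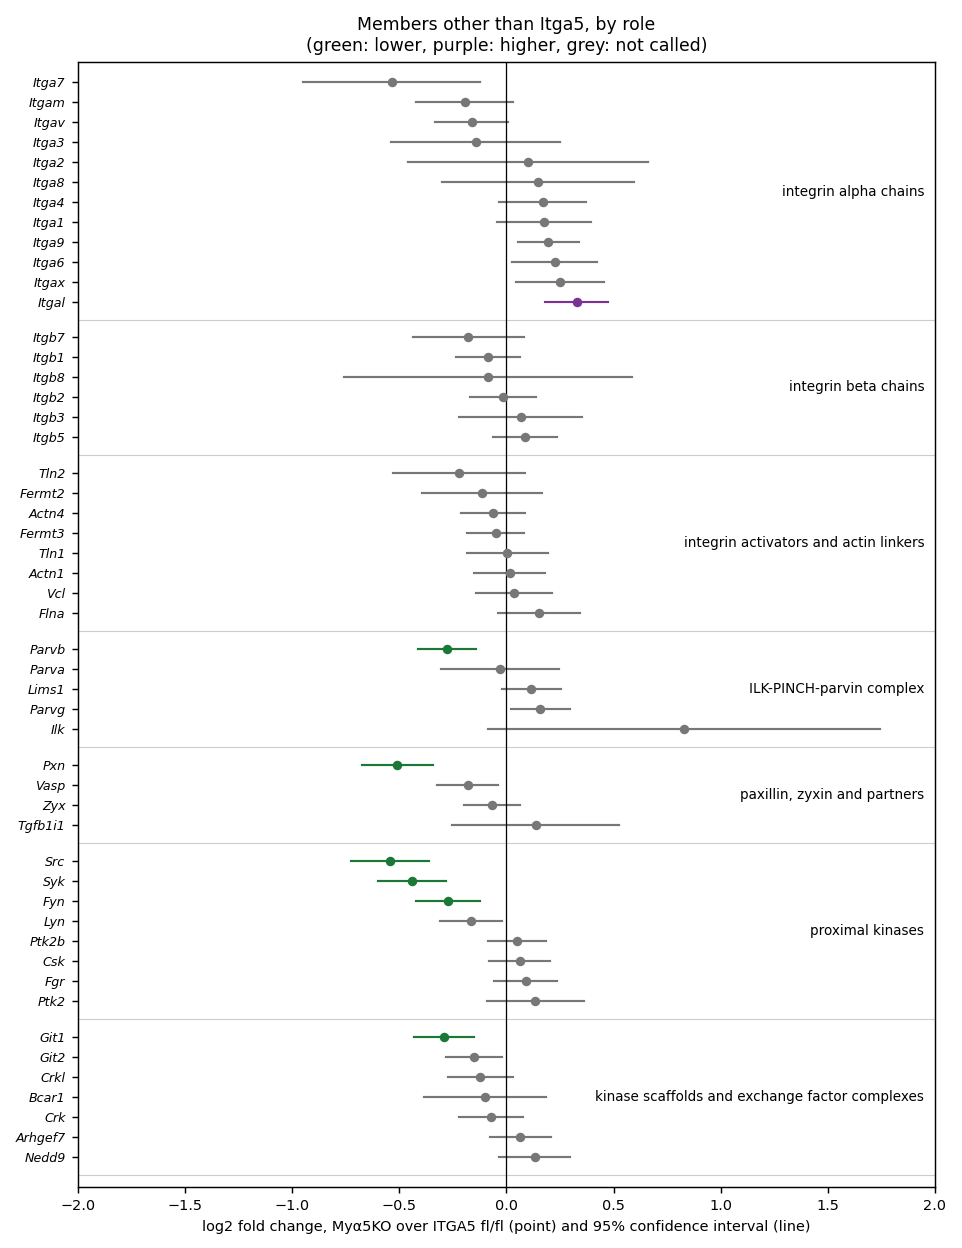
Log2 fold change of the 50 genes other than Itga5, Myα5KO over ITGA5 fl/fl (points), with the 95% confidence interval of the edgeR fit (lines), grouped by role; n = 3 libraries per group. Green points are the 6 lower genes and the purple point is Itgal; all 6 β chains and all 8 activators and actin linkers are grey (not called), and the widest interval belongs to Ilk.

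Itga5 (ENSMUSG00000000555, GRCm38 chr15:103344286-103366763, minus strand) had 653, 568 and 599.6 CPM in ITGA5 fl/fl libraries, against only 49.99, 49.0 and 47.1 CPM in Myα5KO libraries. All Myα5KO libraries lay below all controls, and 8.02% of the control level remained (log2 fold change -3.64, SE 0.079, edgeR adjusted p 4.42e-12). The files count reads over the whole gene, so the deleted exons could not be separated from those that remain. Lyz2, the lysozyme gene into which Cre is inserted, was at 53.0% of its control level (log2 fold change -0.92, edgeR adjusted p 4.27e-05), so that the driver locus and the target both followed the labels.

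Levels of different chains were compared per gene length, as fragments per kilobase of gene and per sequenced fragment total (FPKM). In ITGA5 fl/fl macrophages Itga5, at 122 FPKM, ranked first among the 13 α chains, ahead of Itgam (42.7 FPKM), Itga6 (35.3 FPKM), Itgav (29.5 FPKM) and Itgax (27.2 FPKM). In Myα5KO macrophages it ranked 8 of 13, at 9.79 FPKM, and Itga6 ranked first (41.2 FPKM). Itga9, Itga4 and Itgal, with 11.0, 10.8 and 10.7 FPKM over all libraries, formed a middle class. The collagen receptor chains Itga1 and Itga2, the laminin receptor chains Itga3 and Itga7, and Itga8 were at 0.386 to 1.01 FPKM. Exons of Itgam overlap those of the predicted gene Gm49368 on the same strand over 68.7% of their length, and Gm49368 had only 0.061 CPM in ITGA5 fl/fl. How reads in the shared bases were counted is not stated. If they were left out, the printed level of Itgam is too low. Its level is therefore uncertain, and so are the first ranks of Itga5 and Itga6.

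**Figure D2:**
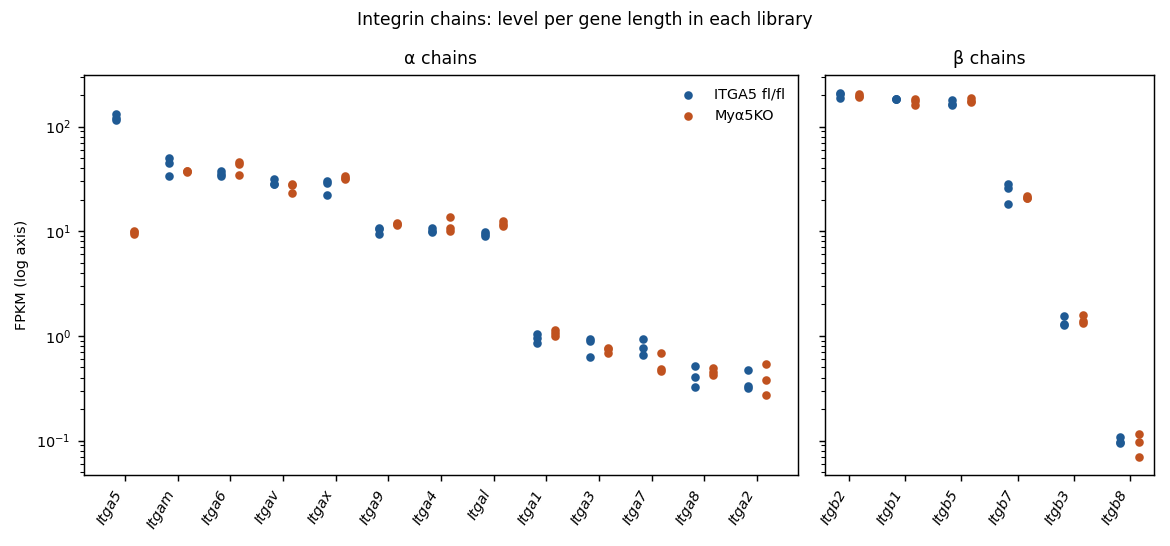
FPKM of the 13 α chains and 6 β chains in each library (log axis), ordered by their mean in ITGA5 fl/fl; each point is a library, n = 3 per group. Itga5 drops from the top of the α chains to the level of Itga4, Itga9 and Itgal, while the points of both groups lie close together for the β chains. The level of Itgam, and with it the order at the top, is uncertain.

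The α chains able to pair with β1 (Itga1 to Itga9 and Itgav) summed to 211 ± 13.4 FPKM in ITGA5 fl/fl against 104 ± 10.6 FPKM in Myα5KO macrophages (SD, n = 3 each; exact permutation p = 0.1, the smallest that 3 against 3 libraries can give; adjusted p = 0.25 over 5 sums). Itga5 made up 58.4%, 57.03% and 58.5% of the sum of the 10 chains in ITGA5 fl/fl libraries, against 9.05%, 9.21% and 10.2% in Myα5KO libraries. The groups did not overlap (exact permutation p = 0.1, adjusted p = 0.3 over 6 shares). Without Itga5, the 9 other chains summed to 88.6 ± 4.65 FPKM and 93.8 ± 10.2 FPKM, with overlapping groups (exact permutation p = 0.6, adjusted p = 0.9). The difference between these sums was within the spread between libraries, and Myα5KO replicate 3, at 82.3 FPKM, was the lowest of all 6.

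**Figure D3:**
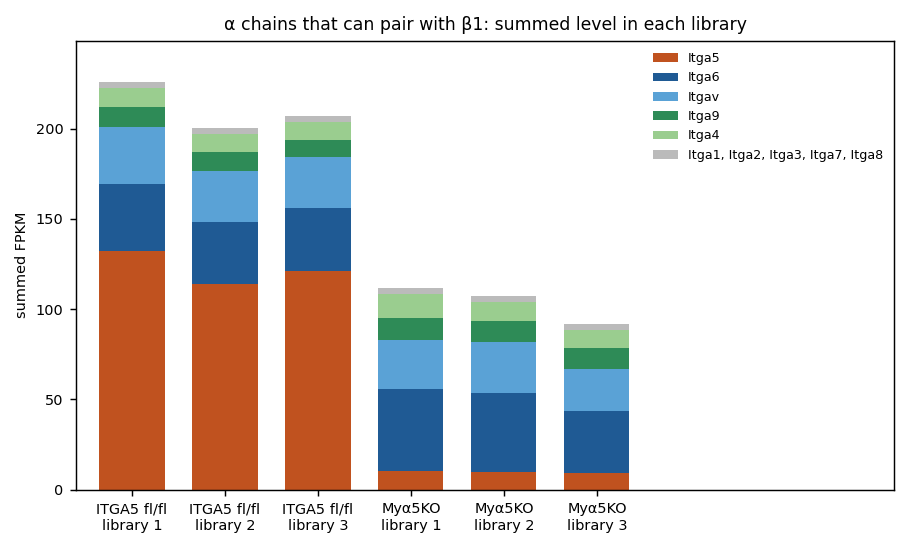
Summed FPKM of the 10 α chains that can pair with β1, stacked by gene, in each of the 6 libraries. The Itga5 segment takes 57.03% to 58.5% of the bar in ITGA5 fl/fl against 9.05% to 10.2% in Myα5KO libraries, and the other segments together lie between 82.3 and 102 FPKM.

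Among the 12 other α chains, beside 8.75% of all genes tested, only Itgal was called. It encodes αL, which with β2 forms LFA-1, the receptor for ICAM-1 on leukocytes. Itgal (ENSMUSG00000030830, GRCm38 chr7:127296260-127335138, plus strand) had 62.5, 60.1 and 65.0 CPM in ITGA5 fl/fl against 83.1, 78.1 and 74.4 CPM in Myα5KO libraries, with no overlap (log2 fold change 0.33, SE 0.068, edgeR adjusted p 0.00972). The call was lost when ITGA5 fl/fl replicate 2 was left out (0.30 on the log2 scale) and on the FPKM scale. Lymphocytes and neutrophils express Itgal too. The summed level of 8 T and NK cell markers was 9.59 to 10.7 CPM in ITGA5 fl/fl against 14.3 to 17.5 CPM in Myα5KO libraries, with 1 of the 4 tested markers higher and 4 below the count filter, and that of 6 B cell markers was 111 to 152 and 155 to 237 CPM, with 2 of 6 higher. Of the 8 neutrophil markers summed above, 5 were higher, by log2 fold changes of 1.51 (S100a8) to 2.05 (Ltf). None of these markers was at 0 in every library, and their part in the Itgal result was not tested.

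The remaining 11 α chains were not called. Itga9, a receptor for tenascin and osteopontin (0.20, edgeR adjusted p 0.09), and Itgax, the αX chain or CD11c (0.25, 0.132), had all Myα5KO libraries above the controls. Itgav, the chain that binds vitronectin and latent TGF-β (-0.16, 0.237), had all of them below. Itga6, a laminin receptor chain, was at 337, 309 and 315 CPM in ITGA5 fl/fl against 413, 395 and 315 CPM in Myα5KO libraries, so that Myα5KO replicate 3 alone fell within the control range (0.22, edgeR adjusted p 0.157). Without that library Itga6 was called higher (0.34) and Itga7, a laminin receptor chain of muscle at 0.664 FPKM, lower (-0.75). Without ITGA5 fl/fl replicate 1, which had the lowest Itgam and Itgb7 of all libraries (171 and 50.3 CPM), both these genes were called lower (-0.34 each).

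No β chain was called, and none had an unadjusted p of 0.05 or less in edgeR or a call in DESeq2. Itgb2, the shared chain of the leukocyte integrins, was the most abundant at 198 FPKM, followed by Itgb1 at 178 FPKM and Itgb5 at 173 FPKM. Itgb1 had 750.4, 757 and 748 CPM in ITGA5 fl/fl against 751, 713 and 661 CPM in Myα5KO libraries. The range of the controls was narrow, and 1 Myα5KO library lay within it (log2 fold change -0.086, 95% confidence interval -0.24 to 0.064, edgeR adjusted p 0.503). Itgb2 had 568, 623 and 643 CPM in ITGA5 fl/fl against 627, 595 and 592 CPM in Myα5KO libraries, with overlapping groups (-0.016, interval -0.17 to 0.14). Its share of the summed FPKM of the 6 β chains was 34.6 ± 1.70% and 34.5 ± 0.70% (SD, n = 3 each; exact permutation p = 0.9, adjusted p = 0.9). Itgb7, the partner of α4 in homing to gut, was at 22.6 FPKM, whereas Itgb3, the vitronectin receptor chain of platelets and osteoclasts, and Itgb8 were at 1.40 and 0.0969 FPKM. The 6 β chains together summed to 576 ± 8.38 FPKM in ITGA5 fl/fl against 569 ± 22.7 FPKM in Myα5KO macrophages (exact permutation p = 0.9, adjusted p = 0.9), and in every library exceeded the 13 α chains, which summed to 291 ± 8.56 and 185 ± 11.8 FPKM.

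Of the 8 activators and actin linkers 0 were called, and 0 had an unadjusted p of 0.05 or less in edgeR; DESeq2 also called 0. Fermt3, which encodes kindlin-3, had the highest deposited FPKM at 109.6, with 291, 285 and 294 CPM in ITGA5 fl/fl against 281, 287 and 272 CPM in Myα5KO libraries. These ranges overlapped (-0.051, 95% confidence interval -0.18 to 0.084, edgeR adjusted p 0.683). The deposited length of Fermt3 is 2587 bases, whereas its exons cover 5784 bases in GENCODE M21. Its level, rank and share by FPKM are therefore uncertain. In CPM, Flna and Tln1 were higher, at 922 and 877 on average in ITGA5 fl/fl. Kindlin-3 made up 97.6 ± 0.27% of the summed FPKM of Fermt2 and Fermt3 in ITGA5 fl/fl against 97.7 ± 0.38% in Myα5KO macrophages, and talin-1 made up 99.4 ± 0.10% and 99.5 ± 0.08% of both talins (SD, n = 3 each; exact permutation p = 0.9 and 0.5, adjusted p = 0.9 and 0.75). Kindlin-2 and talin-2 were thus minor in both groups, and Fermt2 averaged 14.5 CPM in ITGA5 fl/fl against 13.3 CPM in Myα5KO libraries. Fold changes of the other linkers ranged from -0.22 (Tln2) to 0.15 (Flna, filamin A). Tln1 was even in the controls (879, 887 and 866 CPM) but spread widely in Myα5KO libraries (977, 906 and 757 CPM). Replicate 1 was the highest and replicate 3 the lowest Myα5KO library for Tln1, and also for Flna and for Itga4.

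In the complex of integrin-linked kinase, PINCH and parvin, which joins the β tail to actin, 1 of 5 genes was called, beside 8.75% of all genes tested. Parvb, coding for β-parvin (ENSMUSG00000022438, GRCm38 chr15:84232043-84315688, plus strand), fell from 90.4, 90.6 and 90.9 CPM to 77.8, 74.7 and 71.6 CPM (log2 fold change -0.28, SE 0.062, edgeR adjusted p 0.0146). The 3 controls were nearly equal, and no Myα5KO library overlapped them. The call was lost in 6 of the 16 alternative settings. These included the fits without ITGA5 fl/fl replicate 2 or 3 or Myα5KO replicate 2, at a log2 fold change of -0.28 in each, and library totals (-0.20). Parvg, coding for the γ-parvin of blood cells, had 64.8, 61.0 and 62.3 CPM in ITGA5 fl/fl against 71.5, 70.8 and 67.4 CPM in Myα5KO libraries, each above every control, without a call (0.16, edgeR adjusted p 0.154). Parvb and Parvg lie side by side on chromosome 15. γ-parvin made up 49.5%, 47.8% and 48.4% of the summed FPKM of the 3 parvins in ITGA5 fl/fl against 55.5%, 56.4% and 55.9% in Myα5KO libraries. This share did not overlap between groups (exact permutation p = 0.1, the smallest possible; adjusted p = 0.3). Lims1, coding for PINCH1 and the most abundant of the complex at 25.7 FPKM, had 124, 116 and 124 CPM in ITGA5 fl/fl against 135, 134 and 125 CPM in Myα5KO libraries, the Myα5KO libraries all just above the controls (0.12, edgeR adjusted p 0.305). Ilk itself was counted at only 0.891 ± 0.412 and 1.61 ± 0.767 CPM. Exons of Taf10 and Rrp8, on the other strand, overlap 89.7% of its exon bases, and these genes had 56.0 and 7.18 CPM in ITGA5 fl/fl, so both the low level of Ilk and its fold change (0.83, SE 0.43, edgeR adjusted p 0.266) are uncertain.

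**Figure D4:**
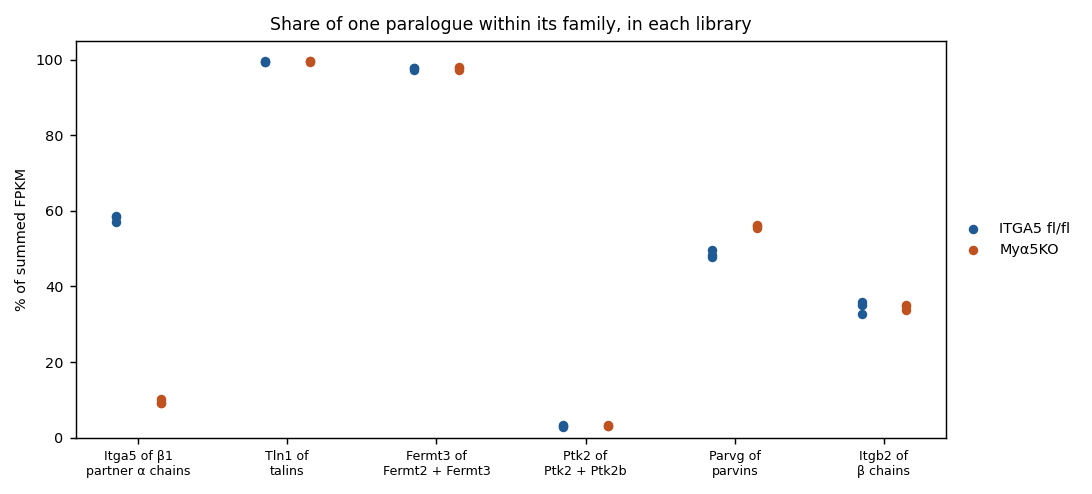
Percent of the summed FPKM of a family held by 1 member, in each of the 6 libraries (points), for Itga5 among β1 partner chains, talin-1, kindlin-3, FAK, γ-parvin and β2. The groups are apart for Itga5 and, by a smaller step, for γ-parvin (48.6% against 55.9% on average), and overlap for the other 4 shares.

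Paxillin, the adaptor on which kinases and their substrates assemble, was lower in Myα5KO macrophages. Pxn (ENSMUSG00000029528, GRCm38 chr5:115506676-115555987, plus strand) had 743, 696 and 701 CPM in ITGA5 fl/fl against 527, 525 and 451 CPM in Myα5KO libraries. The groups were far apart and 70.2% of the control level remained (log2 fold change -0.51, SE 0.076, edgeR adjusted p 0.00143). Its paralogue Tgfb1i1, coding for Hic-5, was at 0.756 FPKM against 73.7 FPKM for Pxn and was not called (0.14, edgeR adjusted p 0.709). Vasp, a factor for the growth of actin filaments and the most abundant of this group at 152 FPKM, had 436, 425 and 416 CPM in ITGA5 fl/fl against 354, 386 and 386 CPM in Myα5KO libraries. Its Myα5KO libraries all lay below the controls without a call (-0.18, edgeR adjusted p 0.113), and the same held for Zyx, coding for zyxin (-0.067, 0.561).

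The kinases that act next to the receptor differed among themselves. Src, Fyn and Syk were lower in Myα5KO macrophages, and Lyn lay below the controls in every Myα5KO library without a call. Fgr, Csk, Ptk2 and Ptk2b overlapped between groups. Thus 3 of 8 kinases were called, all lower, beside the 5.19% of all genes tested.

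Src (ENSMUSG00000027646, GRCm38 chr2:157418444-157471862, plus strand) had 37.7, 33.1 and 32.5 CPM in ITGA5 fl/fl against 24.2, 23.5 and 23.0 CPM in Myα5KO libraries (log2 fold change -0.55, SE 0.085, edgeR adjusted p 0.00181). Syk (ENSMUSG00000021457, GRCm38 chr13:52583173-52648792, plus strand), the kinase that binds phosphorylated immune receptor motifs, had 948, 859 and 876 CPM in ITGA5 fl/fl against 688, 675 and 614 CPM in Myα5KO libraries (log2 fold change -0.44, SE 0.073, edgeR adjusted p 0.00291). For both, the highest Myα5KO library was well below the lowest control, and 68.4% of Src and 73.7% of Syk remained. Fyn (ENSMUSG00000019843, GRCm38 chr10:39368855-39565381, plus strand) had 88.1, 82.8 and 79.0 CPM in ITGA5 fl/fl against 66.1, 73.0 and 67.5 CPM in Myα5KO libraries (log2 fold change -0.27, SE 0.069, edgeR adjusted p 0.0261). Its groups were separated by a smaller gap, and its call was lost in 9 of the 16 alternative settings, including the fits without ITGA5 fl/fl replicate 1 (-0.23) or 2 (-0.28) and without Myα5KO replicate 1 (-0.25) or 3 (-0.26).

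Lyn, the most abundant of the 8 kinases at 101 FPKM, had 449.9, 428 and 429 CPM in ITGA5 fl/fl against 398, 403 and 365 CPM in Myα5KO libraries (-0.16, edgeR adjusted p 0.16). Csk, which phosphorylates and restrains the Src family, had a log2 fold change of 0.061 (interval -0.080 to 0.20) and that of Fgr was 0.089 (-0.057 to 0.24). The transcript of focal adhesion kinase, Ptk2, was scarce beside that of its paralogue Ptk2b (PYK2), and protein was not measured in these libraries. Ptk2 made up 3.05 ± 0.22% of the summed FPKM of Ptk2 and Ptk2b in ITGA5 fl/fl against 3.23 ± 0.17% in Myα5KO macrophages (SD, n = 3 each; exact permutation p = 0.4, adjusted p = 0.75). Neither was called (Ptk2 0.13, Ptk2b 0.048).

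**Figure D5:**
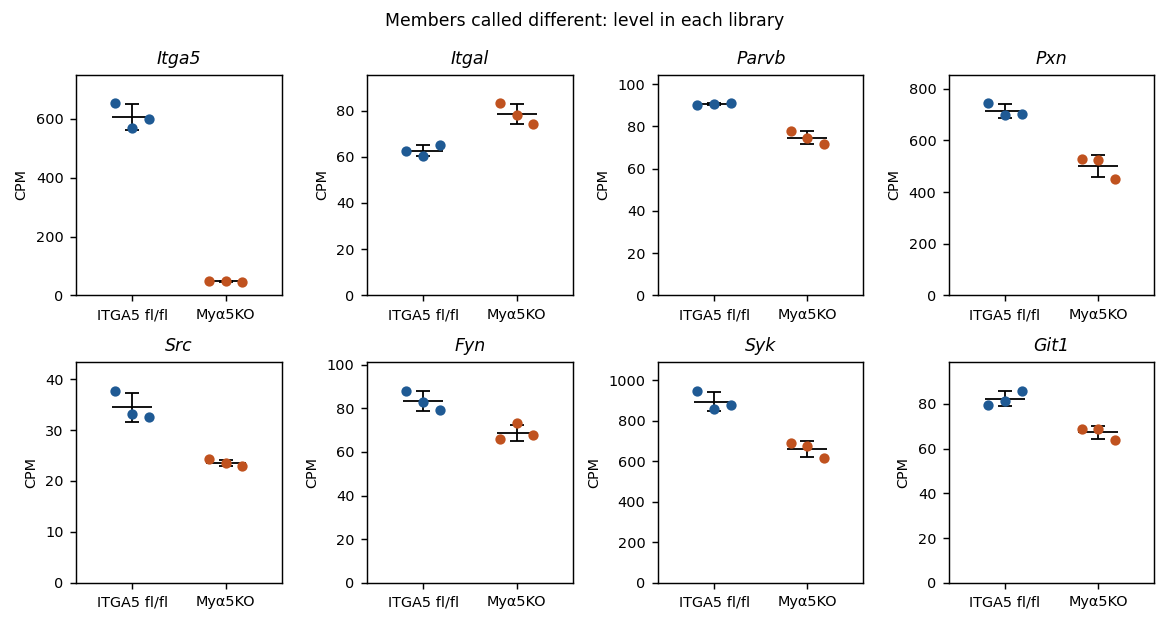
CPM of the 8 called genes in each library (points), with the mean (horizontal line) and SD (error bar) of each group, n = 3; every axis starts at 0. In no gene do the groups overlap: Itga5 falls to 8.02% of the control mean, the 6 other lower genes fall to between 68.4% and 82.7%, and Itgal rises to 125%.

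Of the 7 scaffolds and exchange factor complexes, Git1 was called, beside 8.75% of all genes tested. GIT1 and β-PIX, the product of Arhgef7, bind paxillin and direct Arf and Rac activity at adhesions. Git1 (ENSMUSG00000011877, GRCm38 chr11:77493562-77507786, plus strand) had 79.4, 81.4 and 85.9 CPM in ITGA5 fl/fl against 68.8, 68.8 and 64.0 CPM in Myα5KO libraries, with no overlap (log2 fold change -0.29, SE 0.065, edgeR adjusted p 0.0146). The call was lost in 6 of the 16 alternative settings, including the fits without ITGA5 fl/fl replicate 2 (-0.30) or 3 (-0.26) and all fits on FPKM. Its paralogue Git2 also lay below the controls in every Myα5KO library (-0.15, edgeR adjusted p 0.153), whereas Arhgef7 did not move that way (0.065, 0.601). Crk, an adaptor downstream of paxillin and the most abundant of the group at 34.7 FPKM, had 179, 164 and 165 CPM in ITGA5 fl/fl against 169, 165 and 149 CPM in Myα5KO libraries with overlapping groups (-0.072, 0.588). Crkl (-0.12), Bcar1, coding for p130Cas (-0.10), and Nedd9 (0.13) overlapped too and were not called. Src, Fyn, Pxn, Git1 and Parvb are not confined to leukocytes, and the part of the fibroblast marker levels given above in their decreases was not tested.

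Beside the 51 genes, 84 other adhesion genes were examined, of which 81 passed the count filter. In Myα5KO macrophages 6 were higher and 8 lower (17.3% of those tested, beside 8.75% of all genes tested), with a median log2 fold change of -0.033. Without ITGA5 fl/fl replicate 2 only Pik3cd and Ptpn6 were higher and Cyth1, Pik3r5, Pip5k1c and Thbs1 lower, and without ITGA5 fl/fl replicate 3 or Myα5KO replicate 2 the number higher was 3. In these 3 fits 4.87%, 4.15% and 5.51% of all genes tested were called. In 5 further integrin chains tested 0 were called, and 0 had an unadjusted p of 0.05 or less in edgeR. Itgb6 and the epithelial kindlin Fermt1 had 0 counts in all libraries, and Itgad was below the filter.

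Genes of integrin activation and of immune integrin signalling moved both ways, with 3 of 18 higher and 2 of 18 lower. Of all genes tested, 3.56% were higher and 5.19% lower. Ptpn6, coding for the phosphatase SHP-1 that restrains Src family and Syk signalling, was the largest increase called, from 189, 168 and 174 CPM to 250.04, 261 and 257 CPM (log2 fold change 0.53, SE 0.067, edgeR adjusted p 0.00043). Apbb1ip, coding for the Rap1 effector RIAM that recruits talin, was higher by 0.23 (edgeR adjusted p 0.0359). Cyth1, coding for cytohesin-1, which binds the β2 tail, fell from 589, 571 and 575 CPM to 408, 411 and 348 CPM (log2 fold change -0.57, SE 0.075, edgeR adjusted p 0.00063), and Pip5k1c, whose product makes the phosphoinositide that opens talin, was lower by a log2 fold change of -0.34 (0.00956).

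Subunits of phosphoinositide 3-kinase (PI3K), which makes a membrane signal for spreading and survival, were also called in both directions. The leukocyte catalytic subunits Pik3cd (0.38, edgeR adjusted p 0.00305) and Pik3cg (0.31, 0.0213) were higher. The regulatory subunits Pik3r5, which serves the γ enzyme (584, 524 and 542 CPM against 349, 373 and 321 CPM; log2 fold change -0.66, SE 0.075, edgeR adjusted p 0.000243), and Pik3r1 (-0.27, edgeR adjusted p 0.0341) were lower. These were the 4 called of 22 small GTPase and PI3K effector genes, beside 8.75% of all genes tested. Rac1, Rac2 and Cdc42 were not called, with fold changes from -0.10 to 0.035. Among 24 tested adaptors and actin regulators, Evl, a relative of VASP, was higher (0.32, 0.0103) and Pdlim7 lower (-0.34, 0.00832), beside 8.75% of all genes tested called.

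Of 12 integrin ligands, 3 were called, all lower, beside 5.19% of all genes tested that were lower. Fold changes ranged from -0.73 to 0.099. None of these calls held with FPKM values, or when ITGA5 fl/fl replicate 3 was left out, and without ITGA5 fl/fl replicate 2 that of Thbs1 alone did. DESeq2 did not call Fn1 and called Tnc, coding for tenascin C, lower in its place, and Lamc1 lost its call without ITGA5 fl/fl replicate 1 or Myα5KO replicate 2. Fn1, coding for fibronectin, the ligand of the α5β1 integrin, had 2446, 4042 and 3653 CPM in ITGA5 fl/fl against 2442, 2061 and 1593 CPM in Myα5KO libraries (log2 fold change -0.73, SE 0.17, edgeR adjusted p 0.0163). ITGA5 fl/fl replicate 1 lay only just above the highest Myα5KO library. Thbs1, coding for thrombospondin 1, fell from 5799, 6196 and 6818 CPM to 4668, 4595 and 3036 CPM (log2 fold change -0.61, SE 0.14, edgeR adjusted p 0.0135), and Lamc1, the laminin γ1 chain, was lower by a log2 fold change of -0.34 (0.0229). Spp1, coding for osteopontin and the most abundant ligand at 1592 FPKM, was not called (0.099, 0.711). Fibroblasts also make these proteins. Of the 8 fibroblast markers 1 was called, lower, with fold changes from -0.40 to -0.071, and none was at 0. Their summed level was 1739 ± 144 CPM in ITGA5 fl/fl against 1405 ± 185 CPM in Myα5KO libraries (exact permutation p = 0.1, adjusted p = 0.2 over 10 lists), and their part in the ligand result was not tested.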

How the data were processed

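Per the submitters' processing notes and the methods of the study, the authors removed adapter and low-quality reads, aligned paired-end reads to GRCm38 with TopHat2 (2.0.9) and counted reads per gene with HTSeq (0.6.1). Cufflinks (2.1.1) is also named. The deposited counts are unnormalized whole numbers, and the authors also deposited FPKM values, which equal the count divided by gene length and a constant per library. Handling of strand and of multi-mapped reads is not stated, so counts of overlapping genes are uncertain. The files hold no fold changes or p-values.

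The main test was glmQLFTest of edgeR 4.0.16 (R 4.3.3, quasi-likelihood, TMM scaling, filterByExpr with a minimum count of 10 and a minimum total of 15), without covariates, and p-values were adjusted by Benjamini-Hochberg over all 14522 genes tested. Shares and sums were compared by exact two-sided permutation tests, whose smallest p is 0.1. Totals were 15424451 to 18419287 counts per library, and their precision covers counting error only. Alternatives were DESeq2 1.42.0, limma 3.58.1 on log2(FPKM + 1) and log2(FPKM + 0.1) with or without a filter (3 or more libraries with an FPKM of 1 or more), 2 other scalings, 2 other count filters, the replicate block, each library left out, and an adjusted p of 0.01. The scripts were tested on simulated data. Values per library were given to Itga5, Itgb1, each member called and the member of each of the 7 roles with the highest mean FPKM, and the called genes of the other adhesion lists were named, except 1 that is counted but not reported here by name. Other genes named with values per library (Parvg, Itga6, Tln1) were picked with their values already known. The members and lists were chosen with earlier results of these data known. Exon overlaps were taken from GENCODE M21, in which all 51 genes have the start, end and strand of the files. Exon lengths can still differ: Fermt3 has a deposited length of 2587 bases and 5784 exon bases in GENCODE M21. Promoter windows came from RefSeq (GRCm38.p6).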

Additional observations from a re-analysis of the deposited data

How the results depend on the processing

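With 3 libraries per group, exact tests of shares and sums could not fall below 0.1, and gene counts cannot resolve exons, isoforms or strand. DESeq2 and median-ratio scaling called the same 8 members, but among the other adhesion genes DESeq2 lost Fn1 and gained Tnc. With library totals 5 members were higher, and Itgb2 (0.065), Fermt3 (0.030) and Crk (0.0090) changed sign without a call. Without a count filter 3 were higher, while 6.28% of all genes tested were called. When each library was left out in turn, 0 to 2 members were higher and 4 to 8 lower. Among the other adhesion genes 2 to 5 were higher and 4 to 9 lower. In the same fits 4.15% to 7.35% of all genes tested were called, against 8.75% with all libraries. Without ITGA5 fl/fl replicate 2 only Itga5, Pxn, Src and Syk remained, with 2 other adhesion genes higher and 4 lower. Without ITGA5 fl/fl replicate 3, Itgb2 changed sign (0.022, in a range of -0.067 to 0.022 over such fits), 3 other adhesion genes were higher and 4 lower. Without Myα5KO replicate 2, 3 other adhesion genes were higher. On log2(FPKM + 1) and log2(FPKM + 0.1), 0 members were higher, and 3 other adhesion genes were higher and 4 lower. Itga5, Parvb, Pxn, Src and Syk kept their calls, and Fyn, Git1 and Itgal lost theirs. Of all genes tested, 4.11% and 3.90% were called in these fits. Without a filter on FPKM, limma called 0 members higher and 1 lower (Itga5), and 0 other adhesion genes in either direction. It called 0.0361% of all genes tested. At an adjusted p of 0.01, 4 members were lower (Itga5, Pxn, Src and Syk), and 2 other adhesion genes were higher and 4 lower. At this threshold 3.24% of all genes tested were called. On raw counts not divided by length, the difference of the Itga5 share was -35.4 percentage points in place of -48.5. The causes of these shifts were not tested. Some settings also used fewer samples or genes.

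No sign was seen that the replicate numbers pair the libraries. Deviations of same-numbered libraries from their group means correlated at 0.053, -0.087 and 0.039 across genes, and those of differently numbered libraries at -0.119 to 0.089. With 3 libraries per group this cannot exclude a pairing. With the replicate number as a block, the counts were 1 higher and 7 lower, the same 8 members, and 4 higher and 11 lower other adhesion genes.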

Other observations

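Markers of further cell types were also counted. The summed level of 8 cardiomyocyte markers was 22.5 to 24.8 CPM in ITGA5 fl/fl libraries and 14.4 to 17.6 CPM in Myα5KO libraries, and 3 of the 8 were called lower (Tnnt2, Actc1 and Ttn). The groups did not overlap (exact permutation p = 0.1, the smallest possible, and adjusted p = 0.2 over 10 lists). The summed levels of mural cell (exact permutation p = 0.3), endothelial cell (0.6), platelet (0.5) and dendritic cell markers (0.5) overlapped between groups, with adjusted p from 0.5 to 0.6. Single markers were called all the same. Of 8 endothelial markers, Kdr was higher (log2 fold change 0.26) and Cldn5 lower (-0.44). Of 7 dendritic cell markers, Cd209a was higher (0.57). No mural cell marker and none of the 3 tested platelet markers was called. Platelets carry Itga2b and Itgb3, which were at 0.342 and 1.40 FPKM, and the platelet gene Gp6 had 0 counts in every library. Their part in the levels of the integrin chains was not tested.

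The spread between libraries varied from gene to gene. It was wider in ITGA5 fl/fl libraries for Itgam (a coefficient of variation of CPM of 18.6% against 0.345%) and wider in Myα5KO libraries for Tln1 (1.16% against 12.8%). Over the 51 genes, the median coefficient of variation of CPM was 5.64% in ITGA5 fl/fl libraries, against 5.29% in Myα5KO libraries. By mean deposited FPKM over all libraries, 7 genes were at 100 or above, 25 between 10 and 100, 10 between 1 and 10, and 9 below 1. The 7 include Fermt3, whose gene length is uncertain.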
